A study of Sus scrofa with 96 samples.

Results

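Livers of boars of medium genetic merit of boar taint (BT) were compared with livers of boars of low merit. The comparison held the liver libraries of the stranded mRNA kit from the first file batch, 16 from medium BT and 15 from low BT boars, which is 31 of the 96 libraries of the series. All boars were non-castrated Danish Landrace males, slaughtered at about 100 kg, and a punch of liver was placed in RNAlater at once. Merit was the sum of the estimated breeding values (EBVs) of the sire for skatole and for human nose score, so low BT stands for the sires predicted to give the least taint and medium BT for sires near the middle. No treatment was given and both groups shared breed, sex, tissue and library kit. The groups therefore describe the sires, no taint value of the boars themselves was used here, and boars of 1 group can share a sire. Sire identities were not used here, so the p-values treat boars as independent and measure the spread between animals within a group.

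Boar taint is the off-odour of heated pork from entire males and comes mainly from skatole, a product of tryptophan breakdown by gut bacteria, and from androstenone, a steroid made in the testis. The liver clears both, first through oxidation and reduction by phase I enzymes such as the cytochromes P450 and hydroxysteroid dehydrogenases, and then through conjugation by phase II enzymes such as sulphotransferases, so that they leave the body. What is not cleared is stored in fat.

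Between 3728775 and 12156143 reads per library fell on genes, and defining markers of hepatocytes stood at a summed 65896 to 316283 CPM in medium BT and 97165 to 211125 CPM in low BT, ALB being the highest. The medians were 211259 CPM in medium BT and 165334 CPM in low BT. CPM, read counts scaled to a common library size, are given here after scaling by trimmed mean of M values (TMM), which corrects for a few abundant genes taking a larger share of some libraries. The TMM factor was 0.944 ± 0.149 (SD, n = 16) in medium BT and 1.08 ± 0.12 (SD, n = 15) in low BT, a difference beyond the spread between animals (2-sided permutation test of means, p = 0.00809, adjusted p = 0.0485 over 6 library measures), though the same test on medians gave an adjusted p of 0.102. The share of reads assigned to genes had a median of 63.9% in medium BT and 57.1% in low BT (adjusted p = 0.115 by the permutation test of medians and 0.152 by that of means). Replicate 2 of medium BT, the only library of the comparison whose file is labelled as run 2, had the fewest reads on genes and an assigned share of 48.7%. It was the medium BT liver nearest to, or furthest into, the low BT range for 34 of the 60 named DE genes. The part of depth, assigned share and TMM factor in the differences below was tested only by adding each as a covariate.

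Of 12136 genes with a mean count above 5, 582 were differentially expressed (DE) between medium and low BT, which is 4.80% of the genes tested (limma, Benjamini-Hochberg adjusted p-value under 0.05). In medium BT 331 genes were higher, 2.73% of those tested, and 251 were lower, 2.07%. Before adjustment, 2944 genes had a p-value under 0.05, or 24.3% of those tested. The median log2 fold change (medium minus low) was 0.00 over all genes, 0.50 over the genes called higher and -0.61 over those called lower, and 42 DE genes differed by more than 1 on the log2 scale. The genes called lower had a median mean count of 97.0, against 213 for those called higher and 79.6 for all genes. In 0 of the 582 genes were the groups separate, the ranges overlapping in each.

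How many genes were called depended on the test, the scaling, covariates and single libraries. The quasi-likelihood test of edgeR called 104 genes, 71 higher and 33 lower, or 0.857% of those tested, and 100 of them were among the 582. Without sample quality weights, which give libraries with larger scatter less say in the fit, voom and limma called 30 genes. With the assigned share as a covariate 32 genes were called, and with log2 reads 89. Leaving out 1 library at a time gave between 146 (without replicate 10 of low BT) and 1027 (without replicate 2 of medium BT). Scaling by library size alone moved the median of all genes to -0.18 and turned the split to 94 higher and 1792 lower. The split was 384 to 497 where each library had to hold 10 counts of a gene, and 403 to 500 with the TMM factor as a covariate. All of the 582 genes that were tested in an alternative kept their sign in it.

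**Figure D1:**
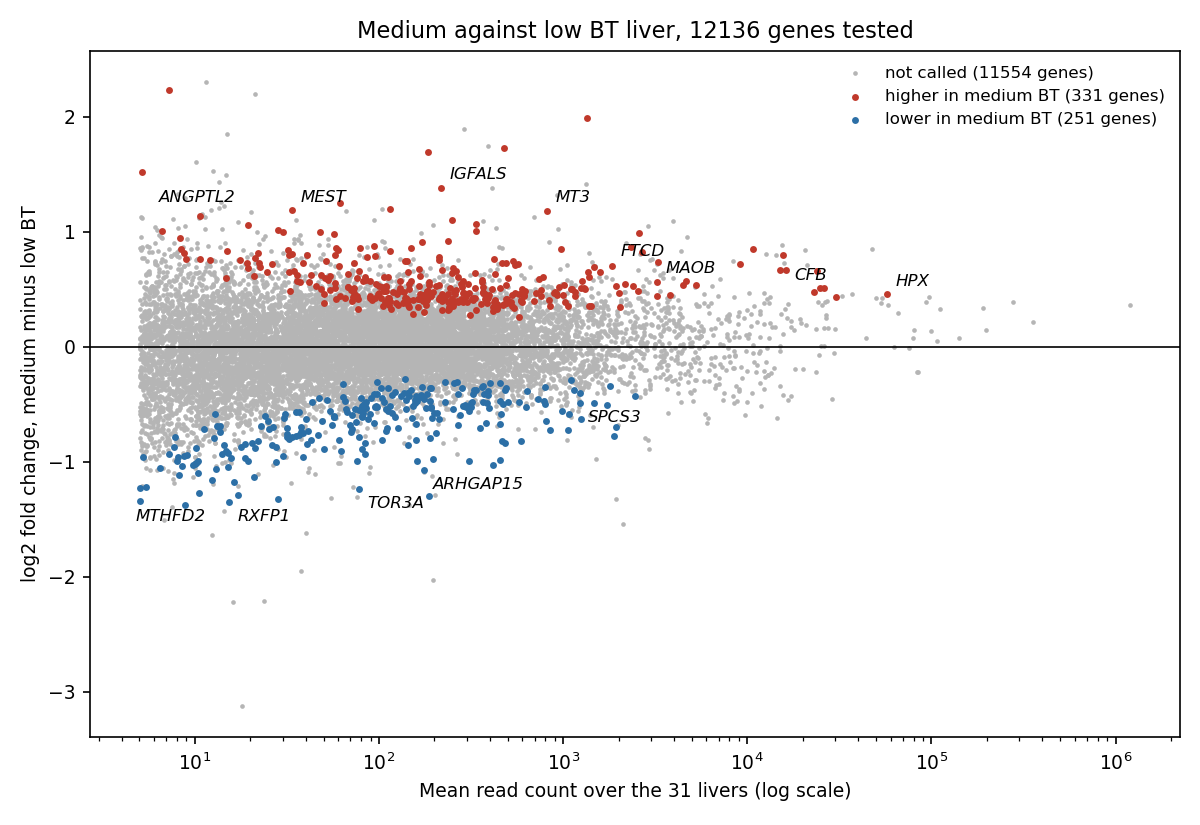
Log2 fold change (medium minus low BT) of each tested gene against its mean read count over the 31 livers, on a log axis, with genes called by limma in colour and some named genes labelled. The 331 genes higher and 251 genes lower in medium BT lie on both sides of 0, with medians of 0.50 and -0.61.

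The 12 named genes of lowest adjusted p-value among those higher in medium BT were led by IGFALS. It encodes the acid-labile subunit, which the liver secretes and which holds insulin-like growth factors in the circulation. Its level was 5.40 CPM in the lowest, 30.5 CPM in the median and 89.8 CPM in the highest liver of medium BT, and 5.94, 11.1 and 28.6 CPM in low BT. The log2 fold change was 1.38 (standard error 0.24, limma adjusted p = 0.00472, edgeR adjusted p = 0.0109). The ranges overlapped, but 15 of the 16 medium BT livers were above the low BT median, and the exception, replicate 2, was the lowest of all 31. IGF1 itself, chosen here after its value was seen, had a median of 8.91 CPM in medium BT and 7.10 CPM in low BT, which did not pass (log2 fold change 0.52, standard error 0.23, limma adjusted p = 0.154).

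The same 12 held a lipase, a lipid transfer protein and an enzyme of folate metabolism, picked out after the genes were seen, while the lists of fatty acid synthesis and oxidation described below held 0 called genes. PNPLA2, the lipase of the first step of triglyceride breakdown, ranged from 12.7 to 31.5 CPM in medium BT with a median of 21.7 CPM, and from 7.85 to 17.9 CPM in low BT with a median of 14.2 CPM. Its log2 fold change was 0.67 (standard error 0.13, limma adjusted p = 0.00602), and 12 of the 16 medium BT livers were above every low BT liver. FTCD, which links histidine breakdown to the folate pool, had a lowest, median and highest level of 154, 234 and 407 CPM in medium BT and of 101, 138 and 294 CPM in low BT. All 16 medium BT livers lay above the low BT median of FTCD, for a log2 fold change of 0.70 (standard error 0.13, limma adjusted p = 0.00502). OSBPL5, a lipid transfer protein of the endoplasmic reticulum, was higher by 0.99 on the log2 scale (standard error 0.19, limma adjusted p = 0.00635), with medians of 6.28 CPM in medium BT and 3.20 CPM in low BT.

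Mitochondrial proteins formed another part of them, a grouping made after the genes were seen. PINK1, a kinase that marks damaged mitochondria for removal, stood at 102, 142 and 175 CPM in medium BT (lowest, median and highest) and at 70.4, 96.5 and 128 CPM in low BT. Its log2 fold change was 0.50 (standard error 0.10, limma adjusted p = 0.00756), and again 12 of 16 medium BT livers exceeded every low BT liver. GATD3, a mitochondrial protein, had medians of 35.0 CPM and 21.2 CPM and was higher by 0.66 (standard error 0.12, limma adjusted p = 0.00472), with 11 medium BT livers above the low BT range. ERAL1, which assists assembly of the small mitochondrial ribosomal subunit, was higher by 0.47 (standard error 0.10, limma adjusted p = 0.00838). The remaining genes of the 12 were ZNF768, TMEM171, VAT1, DPF2 (a subunit of a chromatin remodelling complex) and MEST, with log2 fold changes of 0.57, 0.86, 0.64, 0.43 and 1.19.

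The 12 named genes of lowest adjusted p-value among those lower in medium BT held several regulators of chromatin, RNA and the cytoskeleton, again a grouping made after the genes were seen. MIER1, a transcriptional corepressor, was at 12.9, 18.4 and 27.3 CPM in medium BT (lowest, median and highest) and at 15.2, 27.1 and 35.9 CPM in low BT. Only 1 medium BT liver was above the low BT median of MIER1, and the gene fell by 0.58 on the log2 scale (standard error 0.10, limma adjusted p = 0.00472). TIA1, an RNA-binding protein of stress granules, fell by 0.62 (standard error 0.12, limma adjusted p = 0.0082), from a median of 19.5 CPM in low BT to 12.4 CPM in medium BT. ARHGAP15, a regulator of the GTPase Rac in leucocytes, ranged from 5.78 to 25.9 CPM in medium BT and from 9.70 to 52.0 CPM in low BT and fell by 1.08 (standard error 0.21, limma adjusted p = 0.0082). Its highest medium BT liver was replicate 2.

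LRRCC1, a centrosomal protein, was at 0.889, 1.34 and 2.29 CPM in medium BT and at 1.24, 2.56 and 3.52 CPM in low BT, and 11 of the 15 low BT livers were above every medium BT liver. It fell by 0.85 on the log2 scale (standard error 0.15, limma adjusted p = 0.00472, edgeR adjusted p = 0.0187). ZNF684, a zinc finger gene, was at 0.383, 1.09 and 1.96 CPM in medium BT and at 1.24, 2.13 and 3.57 CPM in low BT. All 15 low BT livers exceeded the medium BT median of ZNF684, and the gene fell by 1.05 (standard error 0.19, limma adjusted p = 0.00472). Levels this low rest on a mean count of 18.6 for LRRCC1 and 15.2 for ZNF684. PHTF2, WDR17, CCDC18, PEAK1, MORC3, FGFR1OP2 and EXOC6 made up the 12, with log2 fold changes between -0.97 for PEAK1 and -0.49 for FGFR1OP2.

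Across these 24 genes, 23 also passed in edgeR, WDR17 being the exception (edgeR adjusted p = 0.0946), and 24 stayed DE whichever of the 31 libraries was left out, with a highest limma adjusted p of 0.0315. Other alternatives ended the call of some of them. VAT1, DPF2, ERAL1, TIA1, FGFR1OP2 and EXOC6 were called in 12 of the 14 alternatives and WDR17 in 11. IGFALS, GATD3, FTCD, PNPLA2, PINK1 and MIER1 were called in all 14. For each of the 12 higher genes at least 15 of the 16 medium BT livers lay above the low BT median. For each of the 12 lower genes at most 2 did.

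**Figure D2:**
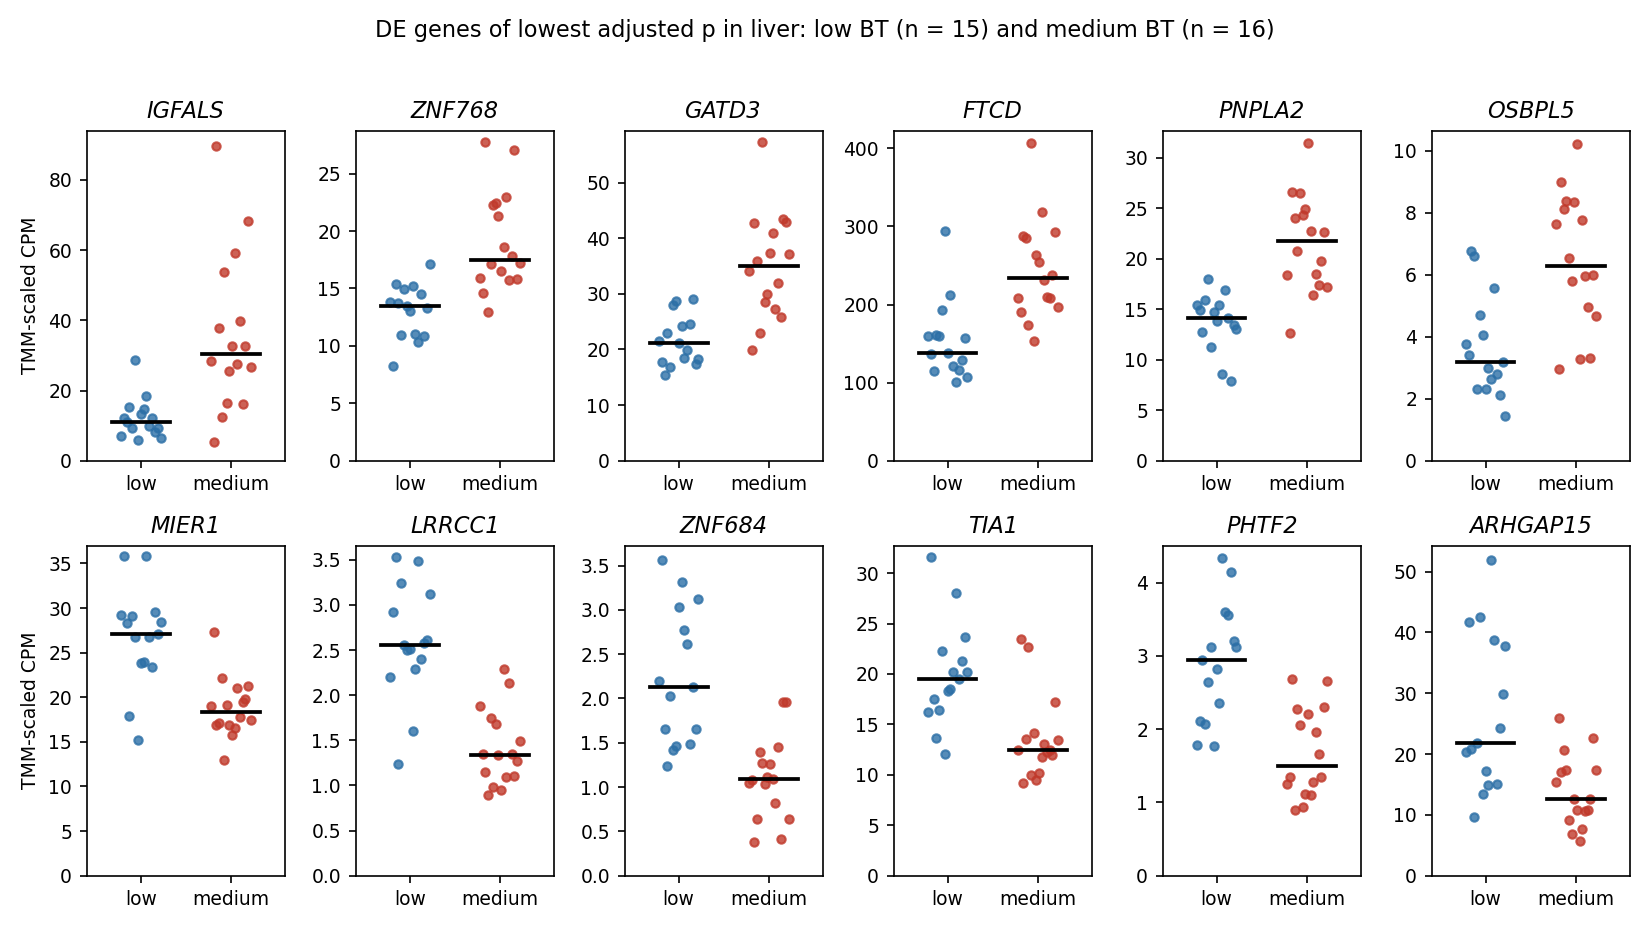
TMM-scaled CPM of 6 genes higher (upper row) and 6 genes lower (lower row) in medium BT, with 1 point per liver and a bar at the group median, for 15 low BT and 16 medium BT livers. The groups overlap in every panel, while the medians are apart, for example 11.1 and 30.5 CPM for IGFALS and 2.56 and 1.34 CPM for LRRCC1.

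By size of change, IGFALS and MEST were followed among named genes higher in medium BT by MT3, ANGPTL2 and BCAM. MT3, annotated as a metallothionein, a small metal-binding protein, though the pig member of the family may be another, was at 20.1, 85.1 and 257 CPM in medium BT and at 7.92, 54.0 and 143 CPM in low BT (log2 fold change 1.18, standard error 0.33, limma adjusted p = 0.0329). ANGPTL2, a secreted angiopoietin-like protein, reached 6.11 CPM in replicate 14 of medium BT, where the next highest liver was at 2.53 CPM, and low BT reached 1.56 CPM (log2 fold change 1.13, standard error 0.34, limma adjusted p = 0.0471). BCAM, a laminin receptor, was higher by 1.02 (standard error 0.28, limma adjusted p = 0.0321), although its highest liver, at 8.15 CPM, was of low BT. None of these passed in edgeR, with adjusted p-values of 0.0662, 0.0544 and 0.425, and ANGPTL2 stayed DE in limma in 6 of the 31 fits that each left out 1 library (adjusted p = 0.0825 without replicate 3 of low BT). MT3 stayed DE in 24 of them (0.0835 without replicate 8 of medium BT) and BCAM in 25 (0.0695 without replicate 5 of low BT).

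The largest decrease among named genes was in RXFP1, the receptor of the hormone relaxin. It was at 0.316, 0.886 and 1.96 CPM in medium BT and at 0.103, 2.41 and 5.83 CPM in low BT. None of the medium BT livers was above the low BT median, while replicate 4 of low BT, the lowest of all, lay below every medium BT liver. The log2 fold change was -1.35 (standard error 0.36, limma adjusted p = 0.0291, edgeR adjusted p = 0.0368). RXFP1 stayed DE in 28 of the 31 fits that each left out 1 library. The call was lost without replicate 10 of low BT (limma adjusted p = 0.059) and without replicate 9 or 11 of medium BT. MTHFD2, a mitochondrial enzyme of folate metabolism, TOR3A, NBEAL1 and BBS10, a chaperonin-like protein of the cilium, followed with log2 fold changes of -1.34, -1.24, -1.18 and -1.10. MTHFD2 passed the minimum only narrowly, with a mean count of 5.03, and stayed DE in 11 of the 31 fits (adjusted p = 0.107 without replicate 11 of medium BT). NBEAL1 stayed DE in 30 of the 31 fits (0.0614 without replicate 8 of medium BT), BBS10 in 26 (up to 0.0783, without replicate 11 of medium BT) and TOR3A in 31. The 4 genes did not pass in edgeR.

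MEST, an imprinted gene expressed from the paternal allele, was the only gene called between high and medium BT when the 15 stranded mRNA livers of high BT were added to the fit. It was at 2.51, 4.25 and 8.77 CPM in medium BT and at 0.763, 2.27 and 8.53 CPM in low BT. Replicate 14 of low BT stood apart at 8.53 CPM, with the next low BT liver at 2.92 CPM, and all 16 medium BT livers were above the low BT median (log2 fold change 1.19, standard error 0.24, limma adjusted p = 0.00838). In high BT the level was 0.823, 1.47 and 5.69 CPM. High minus medium was -1.50 (standard error 0.24, limma adjusted p = 0.00126) and high minus low was -0.33 (standard error 0.26, adjusted p = 0.541). Medium BT was thus above both other groups for this gene. The comparisons of the 46-liver fit share libraries.

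For most DE genes high BT did not extend the difference. Of the 331 genes higher in medium BT, the median of high BT lay between the medians of low and medium BT in 288, at or below low BT in 15 and at or above medium BT in 28. Of the 251 lower genes, it lay between in 210, at or above low BT in 15 and at or below medium BT in 25, and 1 gene was not tested in the 46 livers. The genes were chosen on medium against low BT, so these counts are a description only. Among the 24 genes above, the median of high BT lay between the others in 23, all but MEST. In the same fit 748 genes were called for medium against low BT (6.13% of 12198), 177 for high against low BT (1.45%) and 1 for high against medium BT (0.00820%).

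**Figure D3:**
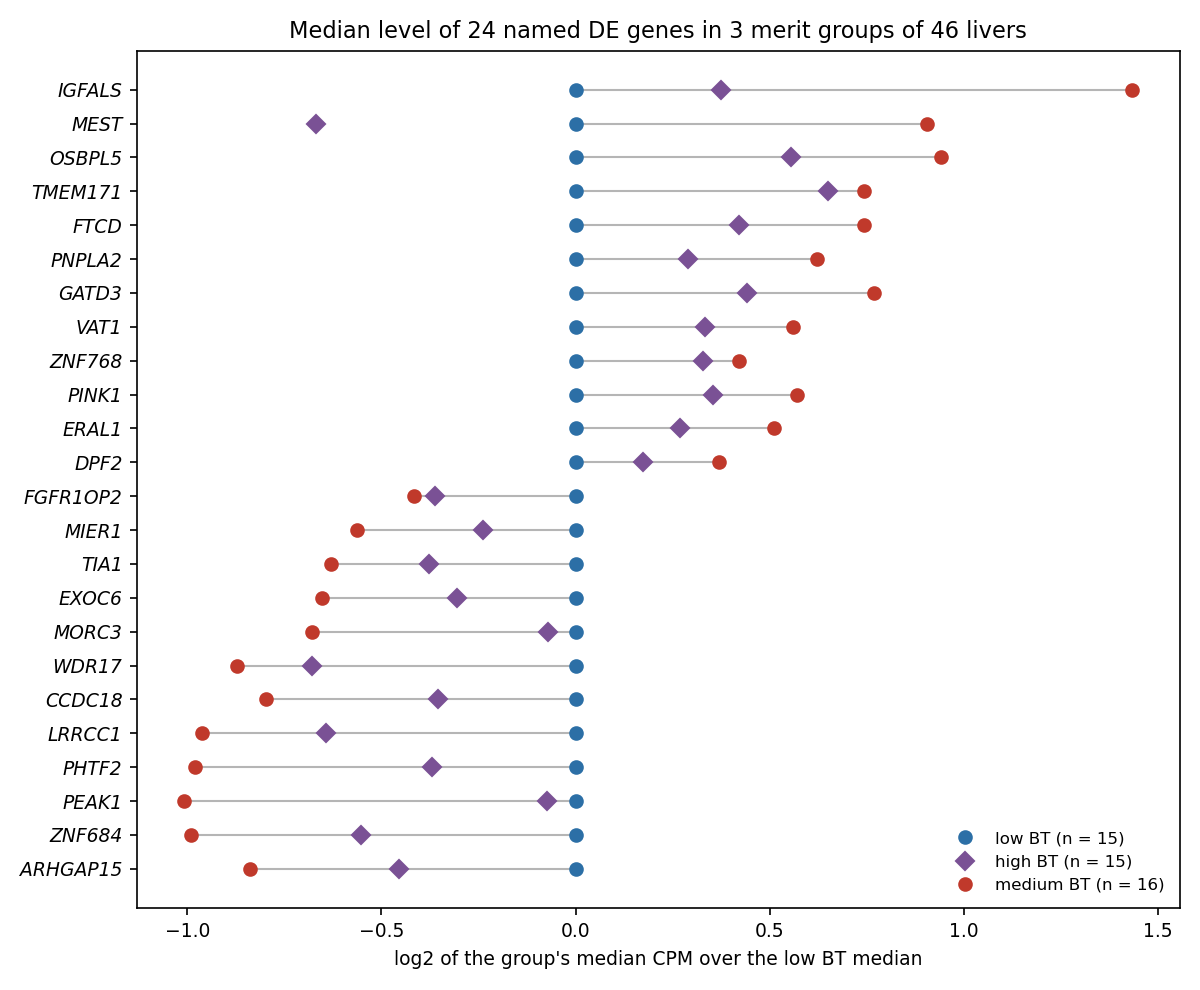
Median CPM of the 24 genes of lowest adjusted p-value in low, high and medium BT, as the log2 ratio to the low BT median, from the 46 stranded mRNA livers scaled together. High BT lies between low and medium BT in 23 genes and below low BT in MEST.

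The enzymes that clear skatole and androstenone were looked at as lists of known genes. The shares to set beside the counts of every list below are those over all tested genes. Of these 4.80% were called and 24.3% had an unadjusted p-value under 0.05 in limma. Of the phase I enzymes 18 were tested, and 2 were higher in medium BT, 0 were lower and 16 did not pass, with a median log2 fold change of 0.17, against 0.00 over all genes. The higher ones were CYB5R3 and MAOB, neither of them a cytochrome P450. CYB5R3, which passes electrons to cytochrome b5, was at 79.5, 150 and 284 CPM in medium BT and at 77.9, 99.7 and 188 CPM in low BT (log2 fold change 0.58, standard error 0.14, limma adjusted p = 0.0183, edgeR adjusted p = 0.0441). MAOB, a monoamine oxidase, was at 248, 367 and 692 CPM in medium BT and at 165, 276 and 428 CPM in low BT (log2 fold change 0.57, standard error 0.15, limma adjusted p = 0.0277), but did not pass in edgeR (adjusted p = 0.0695). CYB5R3 stayed DE in 30 and MAOB in 25 of the 31 fits without 1 library, with highest adjusted p-values of 0.0521 and 0.0659, both without replicate 8 of medium BT. The median of the list was -0.01 without scaling factors.

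The cytochromes P450 known for skatole oxidation, CYP2E1 and CYP2A19, did not pass, but they were low in the same few animals, a pattern chosen after the values were seen and not tested. CYP2A19 was at 1.05, 135 and 957 CPM in medium BT (lowest, median and highest) and at 43.0, 134 and 514 CPM in low BT. Replicates 9, 12 and 8 of medium BT were at 1.05, 3.33 and 3.67 CPM, while the next lowest medium BT liver was at 24.9 CPM. The same 3 animals were the lowest of the group for CYP2E1, at 94.8, 936 and 1237 CPM, where the medium BT median was 3162 CPM and the low BT livers ranged from 1872 to 5189 CPM with a median of 3167 CPM. The medians of the groups thus lay close together for both genes, and the fitted log2 fold changes were -1.33 for CYP2A19 (standard error 0.76, limma adjusted p = 0.28) and -0.46 for CYP2E1 (standard error 0.36, adjusted p = 0.455). CYP1A2 was at 14.3 CPM in replicate 9 of medium BT and at 109 CPM or more in the other medium BT livers. Replicate 8 carried the largest sample weight of the 31 libraries, 2.16.

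Phase II enzymes and steroid enzymes held 0 DE genes in limma and in edgeR, with 4 and 1 genes at an unadjusted p-value under 0.05 in limma. Of 14 phase II enzymes tested, 8 had a positive and 6 a negative log2 fold change, with a median of 0.13, or -0.03 without scaling factors. GSTO1 and GSTZ1, glutathione transferases and the most abundant of them, had log2 fold changes of -0.17 (limma adjusted p = 0.49) and 0.32 (adjusted p = 0.141). The gene annotated as the sulphotransferase SULT1A3, chosen after its values were seen and possibly another member of that family in the pig, was at 3.69, 97.3 and 332 CPM in medium BT and at 16.7, 115 and 224 CPM in low BT, replicate 9 of medium BT again being the lowest. Of 14 genes of steroid and androstenone metabolism, 13 had a positive log2 fold change and the median was 0.26. The most abundant, HSD17B11 and HSD11B1, both hydroxysteroid dehydrogenases, had log2 fold changes of 0.25 (limma adjusted p = 0.554) and 0.27 (adjusted p = 0.221). The median of this list stayed positive in all 14 alternatives, from 0.11 to 0.30.

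Among 18 receptors and transcription factors of the liver, 1 was higher, NR5A2, a nuclear receptor of bile acid and cholesterol metabolism. It was at 13.8, 32.9 and 44.0 CPM in medium BT and at 15.5, 21.8 and 39.0 CPM in low BT (log2 fold change 0.45, standard error 0.14, limma adjusted p = 0.0474), and stayed DE in 10 of the 31 fits without 1 library (adjusted p = 0.112 without replicate 8 of medium BT). It did not pass in edgeR, also at an adjusted p of 0.112. The median of the list was 0.09, and without scaling factors it was -0.09, with 0 genes called higher and 1 lower. NR1I2 and NR1I3, the sensors PXR and CAR that switch on many phase I enzymes, had log2 fold changes of -0.02 and 0.22 and did not pass.

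Of 23 genes of cholesterol synthesis and uptake, 21 had a positive log2 fold change, the median was 0.36 and 1 gene was called, DHCR7, the last enzyme of the pathway. Its level was 13.2, 59.0 and 130 CPM in medium BT and 21.9, 33.7 and 74.0 CPM in low BT, with 14 of 16 medium BT livers above the low BT median (log2 fold change 0.73, standard error 0.21, limma adjusted p = 0.0342). It stayed DE in 22 of the 31 fits without 1 library (up to 0.0679, without replicate 8 of medium BT) and did not pass in edgeR (adjusted p = 0.0695). With the TMM factor as a covariate the median of the list was 0.09, 14 of the 23 genes were positive and 0 were called, and with the assigned share as a covariate the median was 0.18 with 0 called. Bile acid synthesis and transport (13 genes, median 0.27), fatty acid synthesis and storage (19 genes, median 0.23) and fatty acid oxidation (21 genes, median 0.06) held 0 called genes in limma and in edgeR, with 5, 1 and 4 genes at an unadjusted p-value under 0.05 in limma. The median of fatty acid oxidation was -0.12 without scaling factors. Bile acid transport was nearest to the threshold, with ABCG8, a sterol exporter into bile, at an adjusted p of 0.0515 in limma and SLC10A1, the bile acid importer, at 0.0631.

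Of 24 genes of glucose and amino acid metabolism 20 had a positive log2 fold change, with a median of 0.37. OTC, the urea cycle enzyme, was the gene called, with levels of 317, 585 and 956 CPM in medium BT and of 182, 394 and 677 CPM in low BT (log2 fold change 0.57, standard error 0.17, limma adjusted p = 0.0462). It stayed DE in 14 of the 31 fits that left out 1 library (adjusted p = 0.0979 without replicate 10 of low BT) and did not pass in edgeR (adjusted p = 0.108). Without scaling factors the median of the list was 0.18, with 0 genes called higher and 1 lower. Periportal hepatocyte markers had summed medians of 5868 CPM in medium BT and 4403 CPM in low BT. Pericentral hepatocyte markers stood at 3396 and 3605 CPM, though 3 of the 4 tested had a positive log2 fold change. Of 10 hepatocyte markers 9 had a positive log2 fold change. The differences in periportal and hepatocyte markers had the sign of the medians of the cholesterol, glucose and amino acid, and acute phase lists. Most periportal markers, such as ASS1, ARG1, HAL and PCK1, and the hepatocyte marker CPS1 were also written in the glucose and amino acid list. The acute phase list holds the hepatocyte marker FGB, so a shared sign is in part built in. Whether markers and lists moved together across livers, and the part of the markers in the lists, was not tested.

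Acute phase and complement genes, which hepatocytes secrete into blood, had the highest median of the lists. Of 19 tested, 4 were higher, 0 were lower and 15 did not pass, 18 had a positive log2 fold change and the median was 0.45. CD14, a co-receptor for bacterial lipopolysaccharide, was at 141, 268 and 512 CPM in medium BT and at 105, 176 and 316 CPM in low BT (log2 fold change 0.55, standard error 0.14, limma adjusted p = 0.0269). CFB, a protease of the alternative complement pathway, was at 2267, 3775 and 4943 CPM in medium BT and at 1482, 2680 and 4182 CPM in low BT (0.44, standard error 0.12, limma adjusted p = 0.03). For both genes 15 of the 16 medium BT livers lay above the low BT median. HPX, the haem carrier hemopexin, and A2M, a protease inhibitor, were higher by 0.45 and 0.66 (limma adjusted p = 0.0457 and 0.046), but stayed DE in only 9 and 8 of the 31 fits without 1 library. Without replicate 8 of medium BT the adjusted p-values of CD14, CFB and HPX were 0.062, 0.0659 and 0.11, and without replicate 6 of medium BT that of A2M was 0.0806. Highest of all in A2M was replicate 12 of medium BT, at 8898 CPM, with the next at 4323 CPM. The genes that follow were chosen after their values were seen. ITIH4 was highest in replicates 12 and 16 of medium BT, at 15892 and 5980 CPM, with the next liver at 2907 CPM. ALB was lowest in the same livers, at 47771 and 38524 CPM. CRP was at 8305 and 4581 CPM in them, and replicate 10 of low BT was at 5604 CPM.

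Not all acute phase genes stood with them. CRP, C-reactive protein, had a log2 fold change of -0.62 (limma adjusted p = 0.571) and medians of 670 CPM in medium BT and 772 CPM in low BT. In edgeR 0 of the 19 genes were called and the median was 0.43, while limma gave 11 an unadjusted p-value under 0.05. The median of the list stayed positive in all 14 alternatives, from 0.28 without scaling factors to 0.61 with the TMM factor as a covariate, and the number called as higher ranged from 0 to 8.

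Interferon-stimulated genes, which are switched on in antiviral defence, had the lowest median. Of 21 tested, 0 were higher, 1 was lower and 20 did not pass, while 18 had a negative log2 fold change, 11 had an unadjusted p-value under 0.05 and the median was -0.51. The gene called was IFIT1, at 11.9, 24.3 and 43.0 CPM in medium BT and at 20.3, 31.1 and 115 CPM in low BT (log2 fold change -0.68, standard error 0.20, limma adjusted p = 0.0409, edgeR adjusted p = 0.112). Replicate 6 of low BT was the highest by far, with the next low BT liver at 47.9 CPM, and 13 of the 16 medium BT livers were not above the low BT median. IFIT1 stayed DE in 19 of the 31 fits that left out 1 library (adjusted p = 0.0927 without replicate 11 of medium BT). RSAD2, an antiviral enzyme chosen after its values were seen, was at 0.978, 2.34 and 5.73 CPM in medium BT and at 1.30, 4.58 and 27.6 CPM in low BT and did not pass (log2 fold change -1.09, standard error 0.34, limma adjusted p = 0.0524). The median of the list was negative in all 14 alternatives, from -0.71 to -0.32, but the number called lower ranged from 0 in edgeR, without sample weights, without a minimum count and with the assigned share or the reads as a covariate, to 12 in the 48-liver fit without scaling factors.

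**Figure D4:**
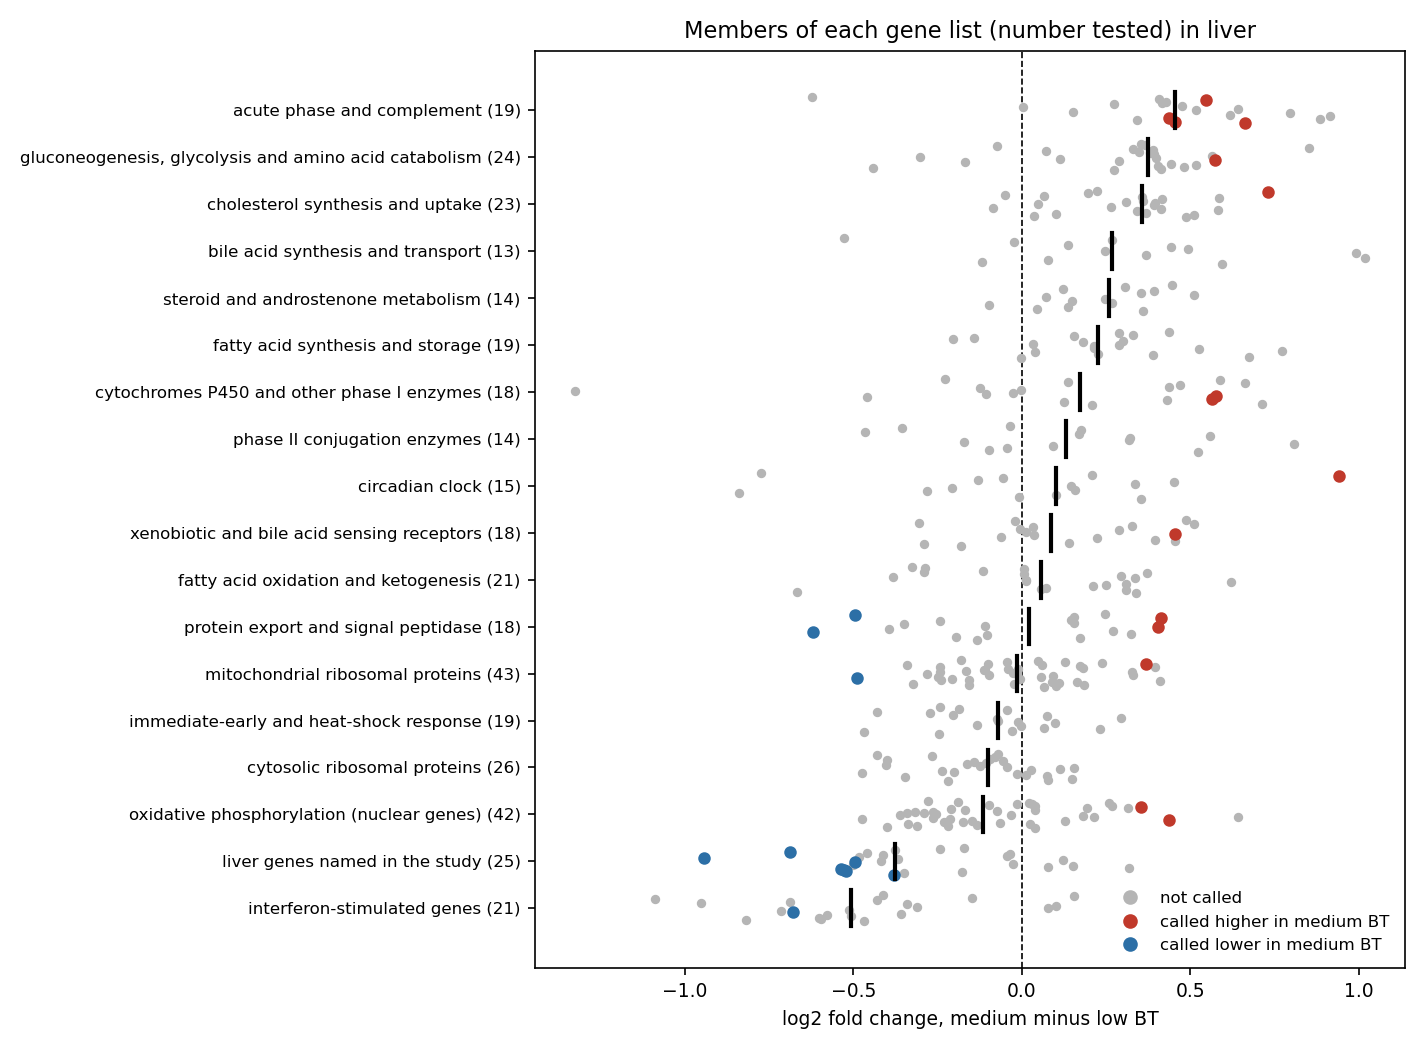
Log2 fold change (medium minus low BT) of each tested member of the 18 gene lists, with called members in colour, the list median as a bar and the median of all genes as a dashed line. Acute phase and complement lies furthest to the right with a median of 0.45 and interferon-stimulated genes furthest to the left with -0.51, and most members of each list are not called.

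The machinery of translation and respiration held few called genes, and the number called as lower depended on the scaling. In each of these lists the share called in the fit reported here was not above the 4.80% called over all genes. Before adjustment, 14 of 42 oxidative phosphorylation subunits and 11 of 43 mitochondrial ribosomal proteins had a limma p-value under 0.05. Over all genes that share was 24.3%. Cytosolic ribosomal proteins (26 tested, median -0.10) held 0 called genes in limma and in edgeR, with 3 at an unadjusted p-value under 0.05 in limma. Of 43 mitochondrial ribosomal proteins 1 was higher, MRPS9 (log2 fold change 0.37, limma adjusted p = 0.0479), and 1 was lower, MRPL13 (-0.49, limma adjusted p = 0.0457). Of 42 subunits of oxidative phosphorylation 2 were higher and 0 lower, while 26 of the 42 had a negative log2 fold change. The higher ones were NDUFA10, of complex I, at medians of 73.2 CPM in medium BT and 53.3 CPM in low BT (log2 fold change 0.44, standard error 0.11, limma adjusted p = 0.0237), and SDHA, the catalytic subunit of complex II, at 165 CPM and 128 CPM (0.35, standard error 0.09, limma adjusted p = 0.0239). Without scaling factors 0 cytosolic ribosomal proteins were called higher and 9 lower, with 0 and 13 for the mitochondrial ribosome and 1 and 16 for oxidative phosphorylation. With the TMM factor as a covariate these counts were 0 and 13, 0 and 5, and 1 and 11, and the median of the cytosolic ribosomal proteins was -0.38. NDUFA10 also passed in edgeR, with an adjusted p of 0.0423, whereas MRPS9, MRPL13 and SDHA did not. MRPS9 stayed DE in 10 and MRPL13 in 14 of the 31 fits without 1 library, with highest adjusted p-values of 0.101 (without replicate 8 of medium BT) and 0.0915 (without replicate 10 of low BT), and without replicate 8 of medium BT NDUFA10 had 0.0607 and SDHA 0.0535.

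Protein export was split. Of 18 genes that carry proteins into the endoplasmic reticulum or insert them in membranes, 2 were higher, SRP68 (log2 fold change 0.40) and OXA1L (0.41), and 2 were lower, SPCS3 (-0.49) and SRP14 (-0.62), with a median of 0.02. SRP68 and SRP14 are subunits of the same particle, the signal recognition particle. SPCS3, of the signal peptidase complex, was at 80.8, 107 and 186 CPM in medium BT and at 77.4, 172 and 277 CPM in low BT (standard error 0.13, limma adjusted p = 0.0258), and 14 of the 15 low BT livers were above the medium BT median. SRP14 had medians of 2.66 CPM and 3.96 CPM (standard error 0.18, limma adjusted p = 0.0435), and its highest liver, at 9.45 CPM, was replicate 2 of medium BT. None of the 4 genes passed in edgeR. They stayed DE in 30 (SPCS3), 23 (SRP68), 16 (SRP14) and 12 (OXA1L) of the 31 fits without 1 library. The highest adjusted p-values in limma were 0.0594 for SPCS3 and 0.0862 for SRP14 (without replicate 10 of low BT), 0.0732 for SRP68 (without replicate 11 of medium BT) and 0.102 for OXA1L (without replicate 8 of medium BT). The median of the list was -0.15 without scaling factors.

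SPCS3 also belongs to 25 tested genes that the study named for liver. Of these 0 were higher and 7 lower in medium BT (PDCD10, SPCS3, SNX14, DUS4L, SFR1, COQ3 and AASDHPPT). A negative log2 fold change was found in 21 and an unadjusted limma p-value under 0.05 in 16, and the median was -0.38. The study picked them on livers of this series, by tests between merit groups or as hubs of a co-expression module related to merit, so their direction here is not independent evidence. In edgeR, without sample weights, and with the assigned share or the reads as a covariate 0 of the 25 were called, and without scaling factors 15 were lower. PDCD10, an adaptor protein of blood vessel integrity, was at 25.3, 34.9 and 58.1 CPM in medium BT and at 22.0, 50.7 and 82.7 CPM in low BT (log2 fold change -0.54, standard error 0.13, limma adjusted p = 0.018). In the 46-liver fit its medians were 36.3 CPM in medium BT, 34.8 CPM in high BT and 52.0 CPM in low BT.

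Of 15 clock genes 1 was higher, DBP, an output gene of the circadian clock, at 0.270, 0.882 and 7.08 CPM in medium BT and at 0.111, 0.426 and 1.46 CPM in low BT (log2 fold change 0.94, standard error 0.28, limma adjusted p = 0.0457). The highest value, 7.08 CPM, was in replicate 3 of medium BT, and the call was lost in 19 of the 31 fits without 1 library, with an adjusted p of up to 0.0829 (without replicate 8 of medium BT). CLOCK and NPAS2, which act early in the same cycle and lie outside the naming rule, had log2 fold changes of -0.77 and -0.84. They did not pass (limma adjusted p = 0.104 and 0.135), and 8 of the 15 clock genes had a positive log2 fold change. Time of day at slaughter was not used here. Immediate-early and heat-shock genes, 19 in number, had a median of -0.07 and held 0 called genes in limma and in edgeR, also 0 at an unadjusted p-value under 0.05 in limma.

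Over the 17 lists by function 364 genes were tested, of which 15 were higher and 4 lower, or 5.22%, against 4.80% of all genes. An unadjusted limma p-value under 0.05 was found in 6 of 18 phase I enzymes, 7 of 18 receptors and 7 of 23 cholesterol genes. It was found in 9 of 24 glucose and amino acid genes, 8 of 18 protein export genes and 4 of 15 clock genes. The share over all genes was 24.3%.

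Genes that mark other cells of the liver were examined beside these lists, since in bulk tissue fewer cells of a type and less RNA per cell cannot be told apart. Of 64 marker genes tested 0 were called by limma or by edgeR. In limma 11 had an unadjusted p-value under 0.05, as had 24.3% of all tested genes. The summed level of T and natural killer cell markers was 30.7 to 133 CPM in medium BT and 33.9 to 146 CPM in low BT (medians 63.0 and 73.0 CPM). Sinusoidal endothelium, with 5 of 5 markers at a negative log2 fold change, had medians of 318 CPM in medium BT and 379 CPM in low BT. Macrophage markers had medians of 695 and 714 CPM, and neutrophil markers 12.5 and 16.6 CPM. Markers of testis were at medians of 0.295 CPM in medium BT and 0.561 CPM in low BT, those of pancreas at 0.825 and 0.948 CPM, and the marker of skeletal muscle at 0 in both. The part of cell composition in the lower level of ARHGAP15 and of interferon-stimulated genes was not tested.

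Some DE genes were neighbours. In the gene order of the RefSeq table, 23 of the 410 called genes found there lay next to another called gene. They formed 11 groups, of which 10 had a single direction. How many neighbours the same number of arbitrary genes would give was not computed, so these counts are a description only. The largest held SIRT2, a deacetylase, and NFKBIB, an inhibitor of NF-kappa B, both higher (log2 fold changes 0.45 and 0.60, limma adjusted p = 0.0291 and 0.0157), and RINL, which was lower (-0.70, limma adjusted p = 0.0344). NFKBIB was above the low BT range in 11 of 16 medium BT livers and also passed in edgeR (adjusted p = 0.0358). AGAP3 and TMUB1 were both higher (0.46 and 0.42, limma adjusted p = 0.0362 and 0.0294), as were C2 and CFB, complement genes of the same cluster (0.53 and 0.44). C2 stayed DE in 12 of the 31 fits without 1 library (adjusted p = 0.0892 without replicate 8 of medium BT). AGAP3 and TMUB1 stayed DE in 18 and 23 of the 31 fits (0.073 without replicate 2 and 0.0689 without replicate 10 of low BT), SIRT2 in 26 (0.0743 without replicate 8 of medium BT) and RINL in 23 (0.0831 without replicate 11 of medium BT). The order comes from a newer assembly than the one used for counting.

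The same merit groups were compared in testis, in 7 libraries of medium and 7 of low BT from the first file batch. All of them came from boars whose livers were compared above, so a shared sign is not agreement between separate animals. There, limma called 0 of 15411 genes, with 2291 at an unadjusted p-value under 0.05 (14.9%). Of the DE genes of liver, 556 were tested in testis, 70 had an unadjusted p-value under 0.05 and 50 of these had the sign they had in liver. IGFALS had a log2 fold change of -0.12 in testis and MEST one of -0.16. Of the 60 named DE genes, 54 were tested in testis and 7 had an unadjusted p-value under 0.05, 6 of them with the sign they had in liver. Lowest was BCAM, at 0.70 in testis (unadjusted limma p = 0.00217) and 1.02 in liver. The exception in sign was NBEAL1, at 0.92 in testis (unadjusted limma p = 0.00986) and -1.18 in liver. The difference between the tissues was not tested.

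**Figure D5:**
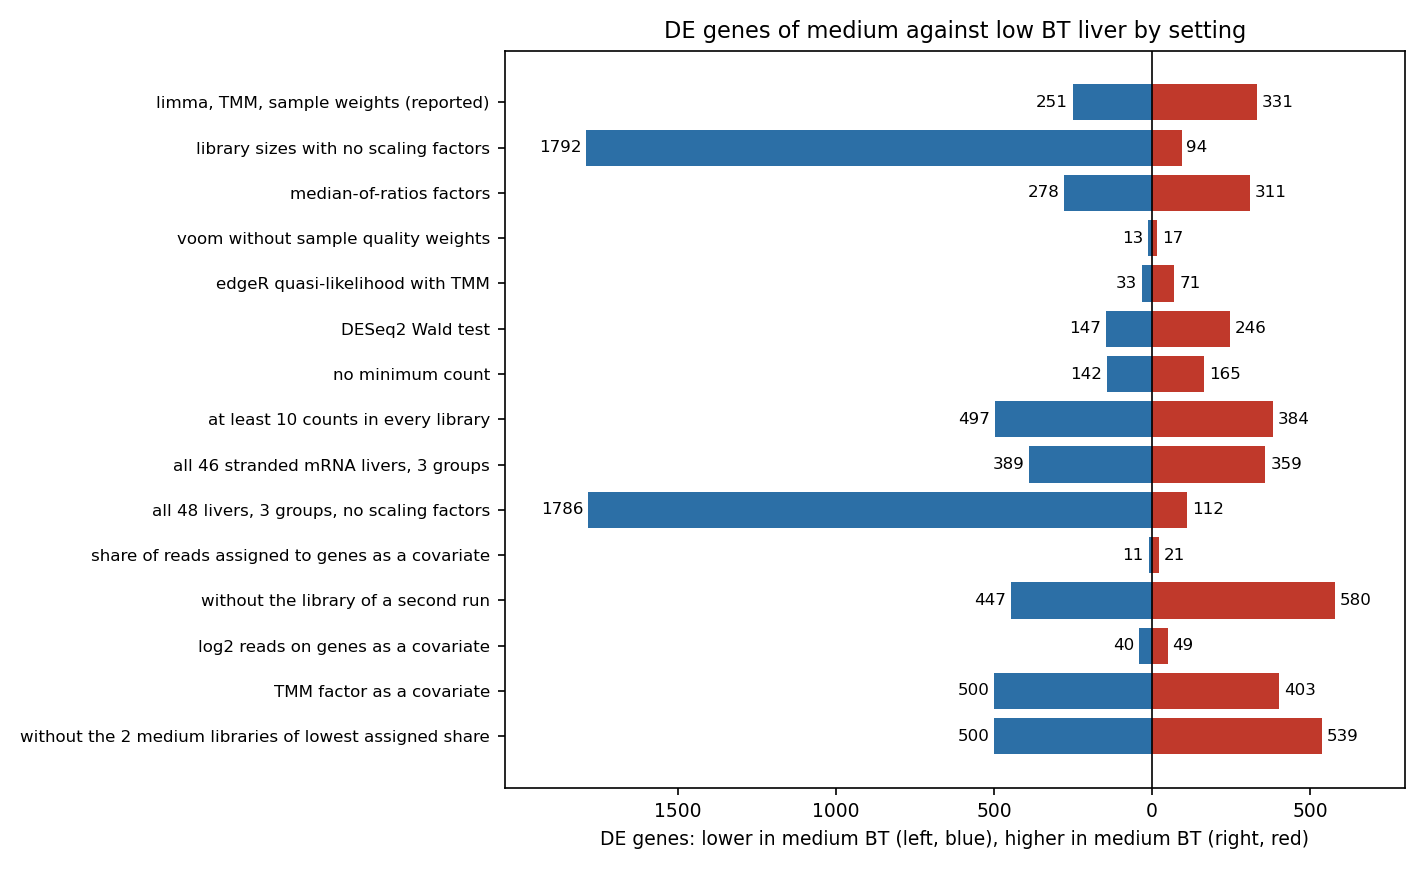
Number of DE genes lower (left, blue) and higher (right, red) in medium BT for the fit reported here and for 14 alternatives. The total runs from 30 without sample quality weights to 1898 in the 48-liver fit without scaling factors, where 1786 genes are lower and 112 higher.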

How the data were processed

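RNA-Seq reads were processed by the study's authors, who trimmed them with cutadapt 1.8.1 and Trimmomatic 0.33, used STAR for mapping on the pig assembly Sus scrofa 10.2 (annotation of Ensembl 79) and SAMtools 1.3.1 for alignments, and obtained gene counts with HTSeq 0.6.0, per the submitters' processing notes and the study's methods. The deposited values are raw read counts per Ensembl gene. Rows that name no gene held 38.8% to 59.7% of the reads and were left out of library sizes and tests. Symbols were taken from a table of pig gene names, which paired 11804 of the 25322 identifiers, and 8218 of the 12136 tested. The RefSeq table of a newer pig assembly served only for gene order, and no genome sequence was used here.

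Groups came from the sample labels. Counts were scaled by TMM (edgeR 4.0.16), the mean count had to exceed 5, and the contrast of medium and low BT was fitted by limma 3.58.1 on voom values with sample quality weights (R 4.3.3). No covariate was used. The threshold for DE was a Benjamini-Hochberg adjusted p-value of 0.05. Library measures were compared by a permutation test with 100000 resamples. Groups held 16 and 15 animals and no single-animal outlier test was applied. Each fit was tested on simulated data in which the changed genes were known, which does not tell which of the limma and edgeR fits suits the real counts better. A named gene was among the 12 of lowest adjusted p-value or the 5 of largest change in each direction with a symbol, a called member of a list (up to 4) or else one of its 2 most abundant members, or a called gene in 1 of the 3 largest groups of neighbours. Some genes outside this rule are said to be so where they appear. NR1I2, NR1I3, ABCG8, SLC10A1, CRP, CLOCK, NPAS2, SFR1, COQ3 and AASDHPPT are also outside it, and their choice followed no rule set in advance. The comparison, the gene lists and this rule were chosen with earlier results of these data known, and no gene set was tested. Alternatives were edgeR's quasi-likelihood test, DESeq2 1.42.0, other scaling, filters, libraries, covariates and weights, and leaving out each library. Depth was 3728775 to 12156143 reads on genes per library, so low counts carry more counting error. Some genes of the lists are not reported here by name.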

Additional observations from a re-analysis of the deposited data

How the results depend on the processing

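The 582 DE genes, 331 higher and 251 lower in medium BT, became 1886 (94 and 1792) when scaling factors were left out, 1898 (112 and 1786) in all 48 livers without scaling factors, 307 (165 and 142) without a minimum count and 881 (384 and 497) with at least 10 counts in every library. Without sample quality weights 30 genes (17 and 13) were called, by edgeR 104 (71 and 33), with the assigned share as a covariate 32 (21 and 11) and without the library labelled as run 2 1027 (580 and 447). DESeq2 called 147 lower of 393 and the fit of 46 livers 389 lower of 748. Of alternatives chosen after seeing the data, log2 reads as a covariate gave 89 (49 and 40), the TMM factor as a covariate 903 (403 and 500), and leaving out replicates 2 and 3 of medium BT 1039 (539 and 500). The cause was not tested. Median-of-ratios factors gave 589. In all 14 alternatives the DE genes tested kept their sign, while between 30 and 582 of them kept their call.

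Leaving out 1 library at a time gave 146 to 1027 DE genes, 81 to 580 higher and 56 to 537 lower. The total moved by over 1.5 times without replicates 2 (1027), 6 (336), 8 (190), 9 (270), 10 (312) and 11 (313) of medium BT and without replicates 2 (318), 4 (940), 7 (945), 10 (146) and 13 (357) of low BT. Of the 60 named DE genes, 27 were called in every such fit, 29 lost the call without replicate 8 of medium BT and 28 without replicate 10 of low BT, and 27 passed in edgeR. The difference in TMM factor passed for means and not for medians (adjusted p = 0.0485 and 0.102). No paired analysis was possible because replicate numbers were given in accession order and animals differ between groups. Low counts limit the genes near the minimum, such as MTHFD2.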
